A study of Bos taurus with 24 samples.

Results

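Between birth and weaning, 31 of the 27570 gene IDs counted in calf adrenal glands met a rule for a strong rise. In each of them every weaned calf lay above every newborn calf. These 31 were chosen by their own counts. Counts were scaled to a common library total (CPM, 1e6 counts per library), and an ID was kept where its lowest CPM among 12 weaning libraries exceeded its highest among 12 birth libraries. The mean weaning CPM plus 0.5, divided by the mean birth CPM plus 0.5, also had to reach 2. This quotient is called the ratio here. Of 42 IDs with every weaned calf above every newborn calf, 33 also reached this ratio. Of these 33, 2 were left out by the rule, which left 31. The members are numbered from 1 to 31 in order of falling ratio.

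RNA of adrenal gland tissue was sequenced from 24 female calves, 1 library per calf, in 4 groups of 6. Calves had been either heat stressed (IUHS) or cooled (IUCL) while in utero, and glands of each treatment were taken on day 0, at birth, or on day 63, at weaning. Birth and weaning calves were different animals, and the labels gave neither breed, dam nor the part of the gland taken.

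The adrenal gland joins an outer cortex, which makes glucocorticoids, mineralocorticoids and androgens from cholesterol, to an inner medulla of chromaffin cells, which store and release catecholamines. Around birth the gland leaves a period in which fetal glucocorticoids prepare the lungs, gut and liver for life outside the uterus, and the cortex is then remodelled as its zones mature. Resident macrophages, vessels and other immune cells are also part of the tissue, so a transcript can change with the cells present as well as with their activity. In bulk tissue, fewer cells of a type and less RNA per cell cannot be told apart.

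Library totals ranged from 12261651 to 19012206 counts, and 15693 genes, with all 31 members among them, passed the low-count filter. The count tables do not pair IDs with gene names, and of 37063 genes in the gene table used here 0 carried an Ensembl ID. No member could be named by symbol, and the adrenal markers that would check the tissue label could not be looked up. IDs are printed for 2 members, and the others are given by their number. Newborn IUCL calf 3 stood apart on the fourth principal component (score 41.8) and weaned IUHS calf 28 on the third (35.9). Newborn IUHS calf 4 lay at the other end of the third (-31.7), and weaned IUHS calf 31 reached 37.5 on the second. Leaving out calves 3 and 28 together is reported beside the results below, while IUHS calves 4 and 31 were left out only singly.

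Together the 31 members took a small and growing share of the gland's counts. At birth the share was 0.1101% ± 0.0185 for IUCL and 0.112% ± 0.0173 for IUHS calves (SD, n = 6 each). At weaning it was 0.437% ± 0.131 in IUCL calves, with single calves from 0.303% to 0.669%. In IUHS calves at weaning it was 0.321% ± 0.0329, from 0.264% to 0.357%. The separation of the ages follows from the rule. Within each age, the 2 treatments overlapped.

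The members spanned the range from barely detected to abundant transcripts. At birth 6 had a mean under 1 CPM, 7 lay between 1 and 10 CPM, 14 between 10 and 100 CPM and 4 above 100 CPM. The counts behind single values ran up to 17764. In at least 1 birth library, 5 members (1, 4, 7, 9 and 21) had a count of 0, while the lowest count of any member at weaning was 7. The median ratio was 3.54, with 21 members at 3 or more, 13 at 4 or more, 6 at 5 or more and 3 at 8 or more.

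**Figure D1:**
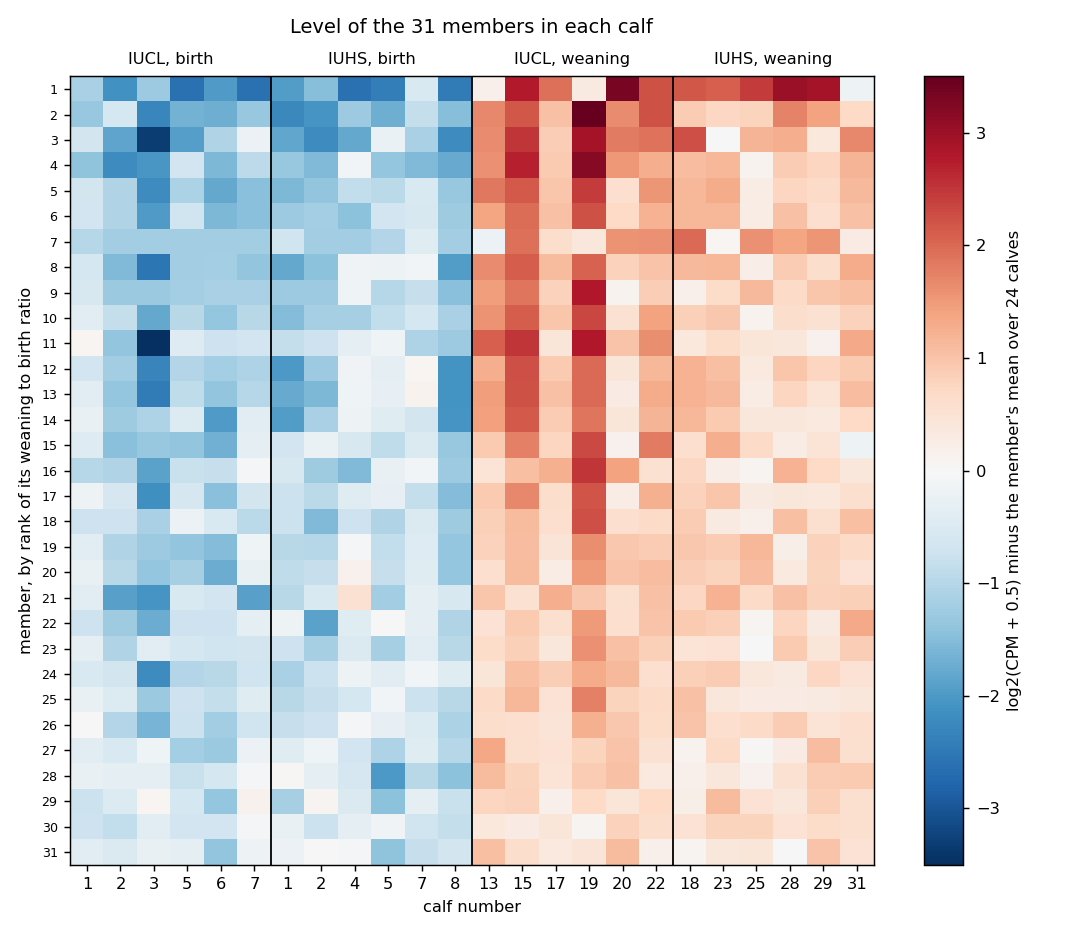
Level of each of the 31 members (rows, numbered by ratio) in each of the 24 calves (columns, grouped by treatment and age), as log2(CPM + 0.5) minus the member's mean over all calves. Birth columns are blue and weaning columns red because the rule chose the members that way; IUCL calf 3 is the darkest birth column and IUCL calf 19 the darkest weaning column.

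The separation between the ages was narrow for many members. The lowest weaning value was 1.23 times the highest birth value in the median, from 1.004 to 3.09, with 4 members at 1.5 or more and 8 under 1.1. The lowest weaning value belonged to IUHS calf 25 for 14 of the 31 members, and the highest birth value to IUHS calf 7 for 8. IUCL calf 3 had the lowest birth value for 15 members. The members just inside the ratio limit stood at 2.01 (12.6 CPM at birth, 25.8 at weaning) and 2.07 (185 and 383 CPM). The IDs just outside stood at 1.99 (44.8 and 89.7 CPM) and 1.90 (7.46 and 14.6 CPM). Of 287 IDs with a ratio of at least 2, 254 had overlapping ages, and 49 of these would separate without 1 library.

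Member 6, ENSBTAG00000015228, had the highest mean level of the members. At birth its lowest, median and highest values were 68.5, 115 and 169.98 CPM in IUCL calves and 99.1, 116 and 184 CPM in IUHS calves. At weaning they were 442, 666 and 1274 CPM in IUCL calves and 326, 552 and 608 CPM in IUHS calves. The newborn treatments covered almost the same range. Among weaned calves, 4 of the 6 IUCL animals lay above the highest IUHS animal, and the ranges overlapped. The mean went from 121 ± 42.2 to 774 ± 318 CPM in IUCL calves and from 133 ± 35.2 to 508 ± 115 CPM in IUHS calves (SD, n = 6).

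Member 15, ENSBTAG00000023028, was a low-level transcript with the smallest interaction p-value among members with a mean of at least 1 CPM. Its lowest, median and highest values at birth were 1.62, 2.15 and 4.83 CPM in IUCL calves and 2.22, 3.92 and 5.29 CPM in IUHS calves. At weaning they were 7.03, 17.3 and 33.1 CPM in IUCL calves and 5.47, 9.30 and 15.8 CPM in IUHS calves. The treatments overlapped at both ages, with the IUHS median above the IUCL median at birth and below it at weaning. Its group means were 2.86 ± 1.41 CPM at birth and 18.2 ± 9.82 CPM at weaning in IUCL calves, and 3.796 ± 1.05 and 9.63 ± 3.45 CPM in IUHS calves (SD, n = 6).

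Several members with high ratios were near the detection floor in newborns, but members 3, 5 and 6 were not (birth means of 40.3, 33.7 and 127 CPM). Member 1, with a ratio of 16.7, had at most 13 counts in an IUCL and 22 counts in an IUHS library at birth. At weaning its lowest, median and highest values were 2.97, 12.5 and 30.1 CPM in IUCL calves and 2.19, 14.7 and 24.5 CPM in IUHS calves. The treatments covered much the same range at both ages. Member 2, with a ratio of 9.79 and the widest gap between the ages, had from 0.0592 to 1.27 CPM in IUCL and from 0.0705 to 1.02 CPM in IUHS calves at birth. At weaning it had 5.08, 10.1 and 32.7 CPM as the lowest, median and highest values in IUCL calves and 3.93, 4.38 and 8.56 CPM in IUHS calves. IUCL calf 19 gave the value of 32.7 CPM, and the next calf had 12.3 CPM. Member 7 summed to 1 count over the 6 IUCL libraries at birth and 9 counts over the 6 IUHS libraries, against 182 and 200 counts at weaning, so the size of its rise rests on very few counts.

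Member 3 combined a high ratio with a high level. It had 9.47, 37.1 and 85.5 CPM as the lowest, median and highest values in IUCL calves at birth and 20.9, 27.9 and 84.0 CPM in IUHS calves. At weaning the values were 180.2, 357 and 743 CPM in IUCL calves and 99.96, 231 and 472 CPM in IUHS calves. Both treatments spread more than 4-fold at weaning, and they overlapped.

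The rise of each member was then set side by side for the 2 treatments, which share no libraries. The age contrast chose the members, so these values describe them and carry no weight as a test. With edgeR, 31 of 31 members were higher at weaning past an adjusted p of 0.05 in IUCL calves, where 5.58% of all genes tested were. In IUHS calves 29 of 31 were, where 2.65% of all genes were. Members 11 and 21 did not pass there (edgeR adjusted p = 0.133 and 0.0701). Both passed without IUCL calf 3 at birth, a library of the other treatment that enters the shared estimate of the spread (edgeR adjusted p = 0.0146 and 0.0368). The log2 rise had a median of 2.61 in IUCL calves, from 0.99 to 6.76, and of 1.61 in IUHS calves, from 0.92 to 5.21. The value of 6.76 belongs to member 7 and rests on 1 count at birth. On the log2 scale the rise was larger in IUCL calves for 28 of 31 members. The ratio itself was larger in IUCL calves for 27, with medians of 4.65 in IUCL and 2.56 in IUHS calves.

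**Figure D2:**
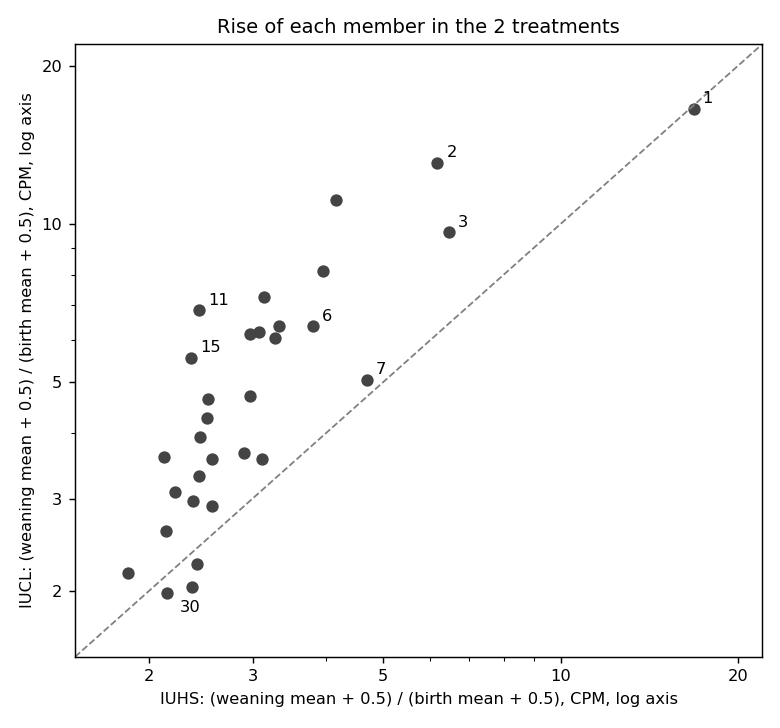
Ratio of weaning to birth level for each of the 31 members in IUHS calves (x axis) and IUCL calves (y axis), both on log axes; the dashed line marks equal ratios and numbers mark members named in the text. Points for 27 members lie above the line, member 1 lies on it at 16.8 and 16.6, and member 30 lies below it at 2.15 and 1.99.

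Member 11 showed how 1 library can enter such a value and its spread. In IUCL calf 3 at birth it had 1 count (0.0592 CPM), while the other 5 newborn IUCL calves had from 15.8 to 43.3 CPM. Newborn IUHS calves had from 17.01 to 37.2 CPM. At weaning its lowest, median and highest values were 55.9, 154 and 292 CPM in IUCL calves and 46.6, 55.5 and 104 CPM in IUHS calves. All 6 weaned IUCL calves lay above the IUHS median. Its rise in IUCL calves was 2.81 ± 0.55 (log2, SE) with all libraries and 2.53 ± 0.36 without IUCL calf 3. The treatment difference at weaning, IUHS minus IUCL, hardly moved, though its SE fell. It was -1.33 ± 0.52 with all libraries and -1.34 ± 0.32 without IUCL calf 3 (edgeR adjusted p = 0.647 and 0.557).

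Heat stress was compared with cooling at each age to ask whether the rising genes differed by what the calf had met before birth. This contrast was not used by the rule, which treats both treatments alike. At birth 0 of 31 members passed an adjusted p of 0.05 with edgeR, DESeq2 or limma-voom, where 0% of all genes passed with edgeR. At an unadjusted p under 0.05, 1 member (member 7) was higher in IUHS calves and 0 were lower, where 2.42% and 1.51% of all genes were. DESeq2 gave 3 higher members (2.86% of all genes) and limma-voom 1 (2.38%). The log2 difference, IUHS minus IUCL, was positive for 20 and negative for 11 members, with a median of 0.13 beside 0.01 over all genes tested. The treatments did not overlap for 0 of 31 members, where 0.051% of all genes did not. For 16 members the 95% interval of the difference lay within 2-fold in either direction. Member 6 differed by 0.11 ± 0.24 (log2, SE; 95% interval -0.39 to 0.60). Member 15 differed by 0.39 ± 0.33 (-0.29 to 1.08).

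At weaning most members were lower in IUHS than in IUCL calves, but no member differed past the threshold. With edgeR, DESeq2 and limma-voom 0 of 31 members passed an adjusted p of 0.05, where 0% of all genes passed with edgeR, and the smallest adjusted p among the members was 0.61 in edgeR. At an unadjusted p under 0.05, 10 members were lower in IUHS calves and 0 higher, where 3.35% of all genes were lower and 3.64% higher. DESeq2 gave 11 lower members (3.79% of all genes) and limma-voom 10 (3.15%). The log2 difference was negative for 27 of 31 members, where 48.8% of all genes were negative. Its median was -0.53, beside 0.01 over all genes. The groups overlapped for all 31 members, and 0.363% of all genes had treatments that did not overlap at weaning. For 12 members the 95% interval lay within 2-fold. These counts at an unadjusted p were taken up after the adjusted tests had called no member, and the members are correlated with one another, so the counts are not sums of independent results.

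The count at weaning moved most with 1 animal. IUCL calf 19 had the highest value of the 12 weaned calves for 19 of 31 members, and the members took 0.669% of its counts. Without this calf, 3 members (5, 10 and 15) were lower at an unadjusted p under 0.05 with edgeR, where 1.73% of all genes were. The median log2 difference was then -0.33, and 26 of 31 members were negative. Without IUCL calf 15 the count was 6 (3.02% of all genes), and without IUHS calf 25 it was also 6 (2.45%). Without IUCL calf 20 it was 14 (3.68%). Without IUCL calf 3 at birth and IUHS calf 28 at weaning together it was 11. The share of all genes in that fit is not given here.

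**Figure D3:**
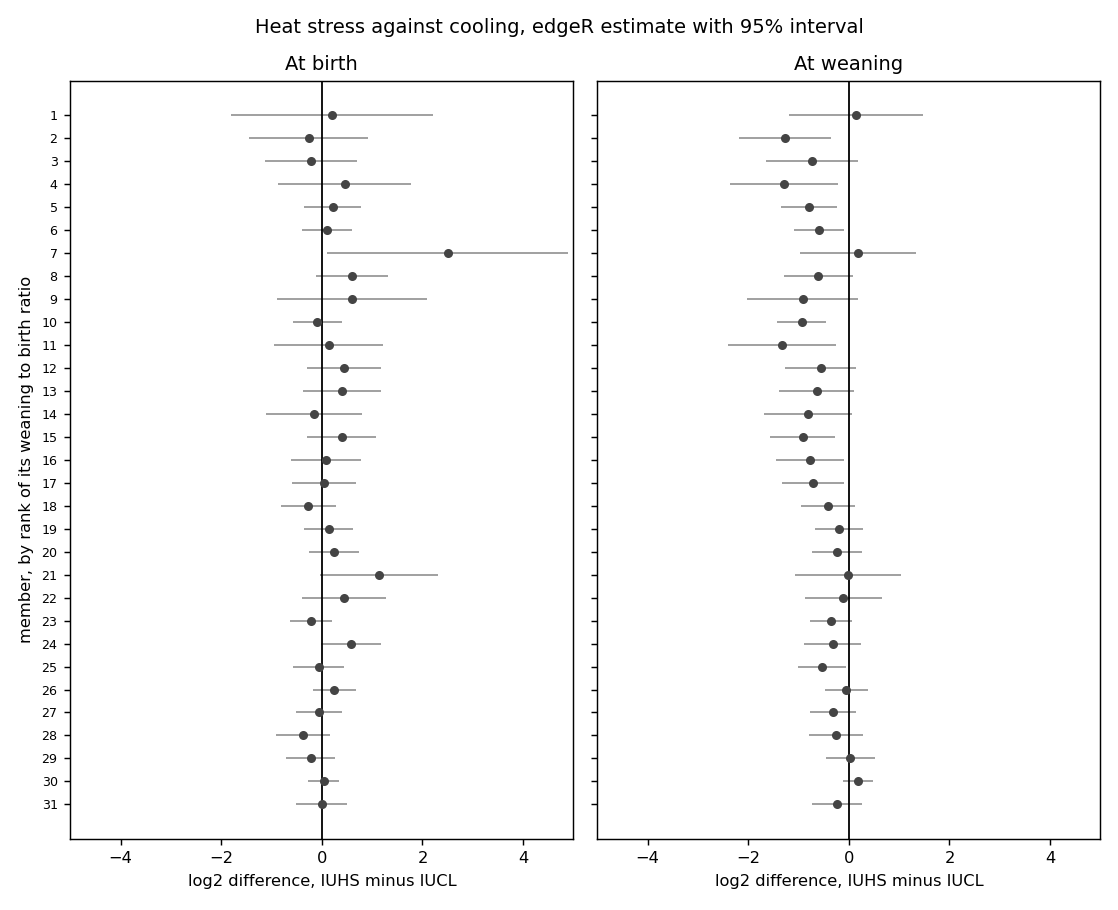
Log2 difference of heat-stressed minus cooled calves for each of the 31 members at birth (left) and at weaning (right), from edgeR with 95% intervals (6 calves per group). At birth the points lie on both sides of 0, and at weaning 27 of 31 lie below 0, with 10 intervals that exclude 0 before adjustment.

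Among the members, number 10 had the smallest p at weaning. Its lowest, median and highest values were 80.6, 157 and 282 CPM in IUCL calves and 61.0, 91.3 and 108 CPM in IUHS calves. All IUCL calves but calf 20 lay above the highest IUHS calf. At birth the same values were 15.7, 28.5 and 42.0 CPM in IUCL and 19.03, 24.9 and 36.3 CPM in IUHS calves, and the treatments overlapped closely. The weaning difference was -0.94 ± 0.24 (log2, SE), with a 95% interval from -1.43 to -0.45 (edgeR unadjusted p = 0.000557, adjusted p = 0.61). Without IUCL calf 19 it was -0.74 (edgeR unadjusted p = 0.00295).

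Of the 2 members named by ID, both were lower in weaned IUHS calves and neither passed. Member 6 differed by -0.59 ± 0.24 at weaning (95% interval -1.09 to -0.10, edgeR adjusted p = 0.656). Without IUCL calf 19 its difference was -0.39. Member 15 differed by -0.92 ± 0.32 (-1.57 to -0.27, edgeR adjusted p = 0.631), and by -0.66 without that calf. The largest differences in size belonged to members 11 (-1.33 ± 0.52), 4 (-1.28 ± 0.52) and 2 (-1.27 ± 0.44), each with an adjusted p of at least 0.634 in edgeR. Without IUCL calf 19 these were -1.08, -0.90 and -0.75.

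Not all members leaned the same way. Member 30, a transcript of high level, had 279, 348 and 461 CPM as the lowest, median and highest values in weaned IUCL calves and 369.6, 398 and 448 CPM in weaned IUHS calves. The IUHS calves lay within the range of the IUCL calves, in its upper part. The difference was 0.17 ± 0.15 (95% interval -0.13 to 0.47, edgeR adjusted p = 0.873). Member 1 differed by 0.15 ± 0.64 (-1.18 to 1.48), an interval too wide to bound a 2-fold difference. Members 7 and 29 were the other 2 with a positive difference.

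**Figure D4:**
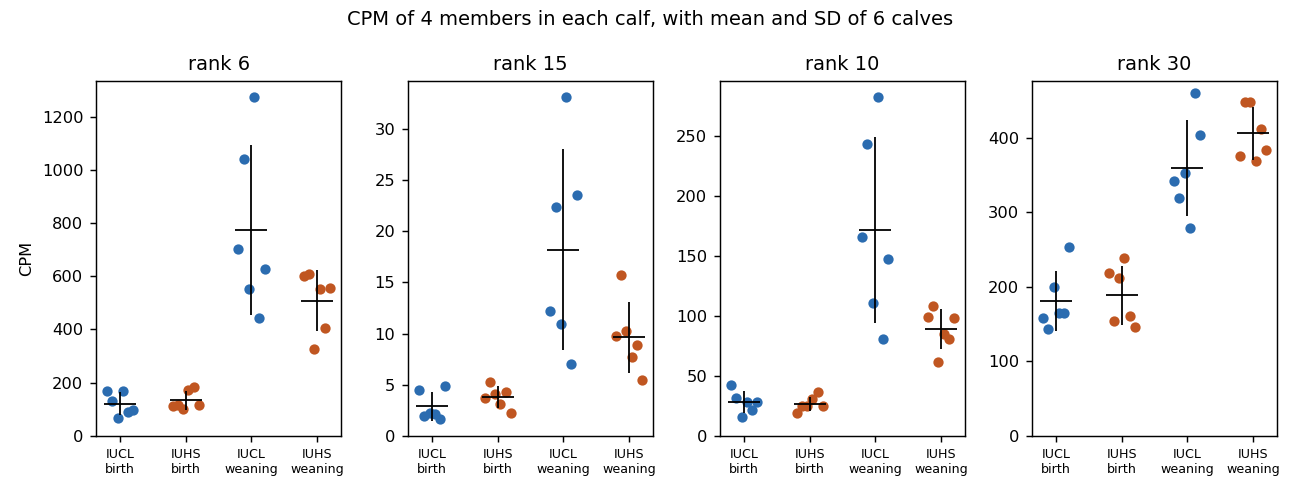
CPM of members 6, 15, 10 and 30 in each calf (points), with the mean and SD of the 6 calves in each group (lines); each panel has its own y axis from 0. In members 6, 15 and 10 the weaned IUCL calves spread widely and have the higher mean. In member 30 the weaned IUHS calves have the higher mean, with ranges of 279 to 461 CPM (IUCL) and 369.6 to 448 CPM (IUHS).

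The interaction asks whether the rise from birth to weaning differed between treatments. It shares the weaning and birth libraries with the comparisons above. With edgeR, DESeq2 and limma-voom 0 of 31 members passed an adjusted p of 0.05, where 0% of all genes passed with edgeR, and the smallest adjusted p was 0.893 in edgeR. At an unadjusted p under 0.05, 6 members (4, 5, 8, 10, 15 and 24) had a smaller rise in IUHS calves and 0 a larger one, where 2.85% and 2.7% of all genes did. DESeq2 gave 9 members with a smaller rise (3.28% of all genes) and limma-voom 7 (2.55%). The estimate was negative for 28 of 31 members, where 50.9% of all genes were negative, with a median of -0.70 beside -0.01 over all genes. For 8 members the 95% interval lay within 2-fold.

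Member 15 had an interaction of -1.31 ± 0.46 (log2, SE), with a 95% interval from -2.26 to -0.37 (edgeR unadjusted p = 0.00848, adjusted p = 0.893). Member 6 had -0.70 ± 0.34 (-1.40 to 0.00311, edgeR adjusted p = 0.893). The count of 6 members moved with single calves of both ages. It was 12 without IUCL calf 1 at birth (3.66% of all genes) or IUHS calf 8 at birth (3.19%). It was 10 without IUCL calf 20 at weaning (3.19%). Without IUCL calf 19 (2.14%) or IUHS calf 25 (2.60%) at weaning it was 4. Without IUCL calf 19, where 2.14% of all genes had a smaller rise at this p, 26 of 31 members' estimates were negative, with a median of -0.48. Without IUCL calf 3 at birth and IUHS calf 28 at weaning together the count was 5, and the share of all genes in that fit is not given here.

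The members also rose and fell together from calf to calf. For this, each gene's log2 CPM was taken as the deviation from its group mean, which removes age and treatment, and correlated over the 24 libraries. The median Pearson's r over the 465 pairs of members was 0.33, beside -0.00183 over all pairs of genes tested. The 33 genes that fall by the mirror rule, described below, had a median of 0.19. An r above 0.5 was found for 32.7% of member pairs and 5.54% of all pairs. The points share their library, its depth and its scaling, and these correlations are a description. Within single groups of 6, newborn IUCL calves had a median r of 0.39 and newborn IUHS calves 0.33. Weaned IUCL calves had 0.45 and weaned IUHS calves 0.12. Without IUCL calf 19 the median over all libraries was 0.27.

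By average linkage at an r of 0.4, a limit chosen after the values were seen, the members fell into 1 large group of 23, a group of 4, a pair and 2 single members. The group of 23 had a median r of 0.53 and kept 23 members at a limit of 0.3 and 15 at 0.5. Members 27, 28, 29 and 31, which are among the 5 lowest ratios, formed the group of 4, with a median r of 0.72. Members 1 and 7, both nearly absent in newborns, formed the pair. Members 21 and 30 stood alone, and member 30 ran against member 10 with an r of -0.60. The other 8 members had a median r of -0.05 with the group of 23.

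**Figure D5:**
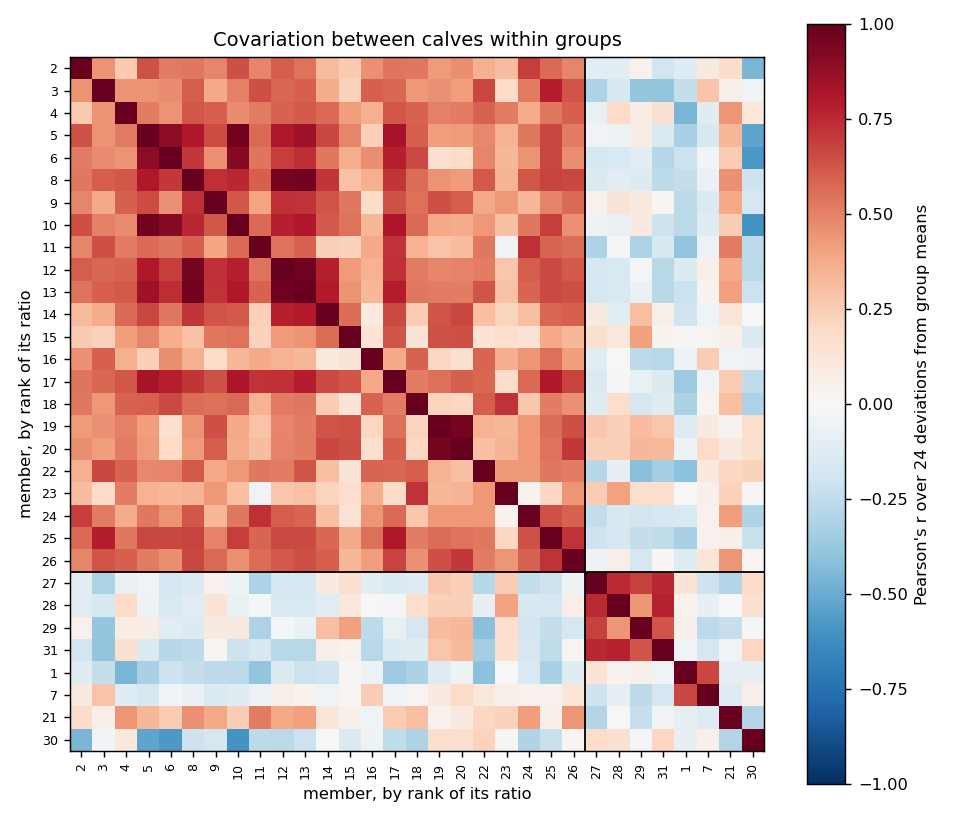
Pearson's r between each pair of the 31 members, over deviations of log2 CPM from group means in 24 libraries, with members ordered by the groups they form. The block of 23 members at the upper left has a median r of 0.53, the 4 members 27, 28, 29 and 31 have a median of 0.72, and the area between blocks has a median of -0.05.

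Some pairs were almost collinear. Members 12 and 13 had an r of 0.97, members 5 and 10 also 0.97, members 8 and 13 had 0.96, and members 19 and 20 had 0.96. How the counting treated reads shared by near-identical or overlapping genes was not given in the sources used here. Whether such pairs share reads was not tested.

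The group of 23 held the treatment pattern described above. At weaning all 23 estimates were negative, where 48.8% of all genes were, with a median of -0.64. All 10 members at an unadjusted p under 0.05 with edgeR belonged to it (3.35% of all genes were lower at this p). Of the other 8 members, 4 were negative, with a median of 0.01 and 0 at an unadjusted p under 0.05. In the interaction all 23 were negative, where 50.9% of all genes were, with a median of -0.85. At birth 7 of the 23 were negative, where 48.6% of all genes were, with a median of 0.13. Without IUCL calf 19, 21 of the 23 were negative at weaning, with a median of -0.43, and 21 in the interaction, with a median of -0.50. The shares of all genes with a negative estimate in that fit are not given here. The 23 vary together between calves, so their shared sign is not 23 independent results. The difference between the 23 and the 8 was not tested, since the 23 were grouped on the same libraries.

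At weaning the highest values of this group came from 2 calves, and the lowest from several. IUCL calf 19 was the highest of the 12 weaned calves for 19 of the 23 and among the top 3 for all 23. IUCL calf 15 was the highest for the other 4 and among the top 3 for 19. IUHS calf 25 was the lowest for 12, and 6 other calves were the lowest for 1 or 2 members each. IUHS calves 25 and 29 were each among the lowest 3 for 16. The median level of the 23, as log2(CPM + 0.5), ran from 5.57 to 6.74 in weaned IUCL calves and from 4.82 to 5.77 in weaned IUHS calves. The groups overlapped, with IUCL calves 13, 15, 19 and 22 above every IUHS calf. At birth it ran from 2.18 in IUCL calf 3 to 4.16 in IUCL calves and from 2.83 to 4.56 in IUHS calves. Totals of counts in calves 19 and 15 were 13942746 and 14009602, within the range of the other libraries.

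The spread between calves was wide for these genes, except in weaned IUHS calves, where it was near that of all genes tested. The median coefficient of variation of a member was 42.1% among newborn IUCL calves and 38.1% among newborn IUHS calves, beside 22.4% and 24.7% for all genes tested. Among weaned calves it was 44.8% (IUCL) and 25.6% (IUHS), beside 21.5% and 23.1%. In weaned IUCL calves the 23 had a median of 45.1% and the other 8 a median of 23.4%, and in newborn IUCL calves 42.3% and 34.7%. In IUHS calves the medians were 33.9% and 44.3% at birth and 25.6% and 25.1% at weaning. All genes tested were not matched to the members for level, and 6 members had a birth mean under 1 CPM. Whether the spread differed between treatments was not tested.

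Other genes also followed the group of 23. Of 15662 genes tested that were no members, 49 had an r over 0.7 with the mean deviation of the 23. How many of the 23 themselves pass this limit was not counted. Of these 49, 41 were higher at weaning than at birth by their mean and 14 had a ratio of at least 2. Among all 27570 IDs, members included, 287 had such a ratio. Over all the genes that were no members, 49.4% were higher at weaning by their mean.

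The mirror rule, by which every weaned calf lies below every newborn calf and the ratio is at most 0.5, found 33 genes. Their log2 difference between treatments at weaning had a median of 0.07, with 14 negative and 19 positive, where the rising members had -0.53 with 27 negative. Of all genes tested, 48.8% were negative at weaning. In the interaction the falling genes had a median of 0.35, with 24 positive and 9 negative, where 50.9% of all genes were negative. At birth 25 of the 33 were lower in IUHS calves, where 48.6% of all genes were, with a median of -0.18. At an unadjusted p under 0.05 with edgeR, 7 were lower and 3 higher at birth (1.51% and 2.42% of all genes). At weaning 0 were lower and 2 higher (3.35% and 3.64%). In the interaction 0 were negative and 6 positive (2.85% and 2.7%). The difference between the rising and the falling genes was not tested.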

How the data were processed

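Each of the 24 tables deposited by the authors holds raw read counts of 1 calf for 27570 Ensembl IDs. Per the submitters' processing notes, reads were handled with HISAT2, HTSeq, Trim Galore 0.4.4 and FastQC 0.11.7 on ARS-UCD1.2. Which annotation release, strand setting and versions of HTSeq and HISAT2 were used is not given in the sources used here, so values of overlapping, antisense or near-identical genes are uncertain. In every library 4742 IDs had a count of 0.

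CPM was computed on each file's total, and all 24 libraries were fitted with edgeR 4.0.16 in R 4.3.3 (TMM scaling, filterByExpr with a minimum count of 10 and a minimum total of 15, robust quasi-likelihood test, 1 mean per group). Two-sided p-values were adjusted over 15693 genes (Benjamini-Hochberg), with a threshold of 0.05. The edgeR SE was taken as the size of the log2 difference divided by the square root of its F statistic. The 95% intervals were built from this SE and the t distribution. Both are approximate, above all for members near 0 counts. The common biological coefficient of variation was 0.295. DESeq2 1.42.0, limma 3.58.1 (voom), DESeq2 size factors in edgeR, no low-count filter and each library left out in turn were alternatives. The fit was also run on simulated counts with planted changes, where each gene was drawn independently of the others. The outcome of that run is not given here. Python 3.11.15 with numpy 2.4.6, scipy 1.17.1, pandas 2.3.3 and matplotlib 3.10.9 was used for the rule, the correlations (log2 CPM with a prior count of 2) and the plots. Principal components used the 2000 most variable genes.

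No library was a copy of another: over 276 pairs the chi-square per degree of freedom was at least 15.3. Labels mark each library as a separate sample, and p-values measure the spread between these samples. The members and the lists were chosen with earlier results of these data known. The named members were, by rule, the one with the highest mean CPM and the one with the smallest edgeR interaction p among members with a mean of at least 1 CPM. Other members described singly, the grouping by correlation, and the counts at an unadjusted p were chosen after the values were seen. Gene lists and cell type markers, written as symbols, were not used because 0 of 37063 genes in the gene table carried an Ensembl ID.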

Additional observations from a re-analysis of the deposited data

How the results depend on the processing

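The rule gave 31 members, and 35 with TMM-scaled CPM (30 of them shared), 34 with DESeq2 size factors (29 shared), 32 with 0.1 CPM added, 30 with 1 CPM added, 21 at a ratio of 3 and 13 at a ratio of 4. Leaving out each library in turn gave 30 to 39, with 30 to 31 of the original members kept. Removing a library cannot make the ages of a member overlap, so a member could be lost only by its ratio. The number kept is therefore no test of the separation. Members past an adjusted p of 0.05 between treatments numbered 0 at birth, at weaning and in the interaction under all 31 alternatives run. Members called higher at weaning numbered 31 in IUCL calves under each alternative and 27 to 31 in IUHS calves, with 31 without IUCL calf 3. The age contrast chose the members, so these counts describe them and carry no weight as a test. The shares of all genes called higher under the alternatives are not given here. Without each library in turn, the members lower in IUHS calves at an unadjusted p under 0.05 ranged from 3 to 14 at weaning and from 4 to 12 in the interaction. The median log2 difference ranged from -0.63 to -0.33 and from -0.87 to -0.48. The share of all genes moved as well. At weaning it was 1.73% where the count was 3 (without IUCL calf 19) and 3.68% where it was 14 (without IUCL calf 20). In the interaction it was 2.14% without IUCL calf 19, where the count was 4. It was 3.66% without IUCL calf 1, where the count was 12. A replicate block was put on the birth libraries whose numbers both treatments share (1, 2, 5 and 7). With it 0 members were called at birth, and the interaction count was 2, with 3 for the same libraries without the block. The shares of all genes beside these interaction counts are not given here. Deviations of same-numbered calves had an r of -0.12, -0.11, 0.17 and 0.29. What the numbers mark is not given in the sources used here, and calves with different numbers were not compared. These values therefore cannot show whether the numbers pair the samples. Under these same fits the rise of ENSBTAG00000023028 in IUHS calves no longer passed (log2 1.25 in both; edgeR adjusted p = 0.0875 and 0.0768, against 0.0144). Of 310 values of the named members under alternatives, 306 kept their direction and side of the threshold, 2 are the losses above and 2 changed sign. These 2 are the birth difference of ENSBTAG00000015228, which was 0.11 and far from the threshold, and became -0.0121 without IUCL calf 3 and -0.00227 with only the shared-number birth libraries. Without each library in turn it ranged from -0.0121 to 0.22. Without the most counted member, the share of counts in IUHS calves at weaning was 0.270%. The alternatives at unadjusted p, the block at weaning and the libraries left out together were chosen after seeing the data. Member 7 and the other members near 0 counts at birth are limited by depth.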

Other observations

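In 20 groups of 6 values (total counts, the members' share and median level, and the 2 named members), Dixon's test set 0 calves apart.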
